A study of Mus musculus with 4 samples.

Results

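This is an account of 52 genes that mark macrophages, measured by RNA-seq in mouse embryonic fibroblast (MEF) cultures. The genes were chosen by name from earlier results of the same libraries and are 52 of the 22835 genes in the deposited table. Their levels in the table chose them, so those levels are given as a description and no test was made on them. Wild-type MEFs at passage 3 (MEF), Mitf knock-in MEFs at passage 5 without doxycycline (Dox (-)) and Mitf knock-in MEFs at passage 5 after 6 days of doxycycline (Dox (+)) were each sequenced as 1 library. A library of wild-type primary mouse melanocytes (PMel, passage 5) belongs to the study and was not analysed here. Both knock-in cultures carried M2rtTA at the ROSA26 locus and a doxycycline-responsive M-Mitf transgene downstream of the Col1a1 gene, and came from KH2 embryonic stem cells that had also received an mCherry transgene. These stem cells had been injected into host blastocysts, and the MEFs were grown from the chimeric embryos, which also hold cells of the host. The mCherry and puromycin resistance cassettes allowed the knock-in cells to be purified, and whether the sequenced cultures had been purified is not given in the sources used here. MEF and Dox (-) differed in genotype, passage and embryo of origin, and these cannot be told apart.

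Macrophages are phagocytes of the myeloid lineage that are found in nearly every tissue, including the embryo, where they derive from the yolk sac and fetal liver. They depend on the receptor for colony-stimulating factor 1 (CSF1) and on the ETS factor PU.1, the product of Spi1, take up immune complexes through Fc receptors and debris through lectin and scavenger receptors, and degrade them in lysosomes. Receptors of several of these families signal through adaptors that carry an immunoreceptor tyrosine-based activation motif (ITAM). Fibroblasts are cells of the mesenchyme and do not belong to this lineage, although they make CSF1.

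Because PU.1 binds purine-rich ETS sites in the promoters of many myeloid genes, the 250 bases before the start of each gene were searched on both strands, in the RefSeq annotation of GRCm38.p6, the patched form of the mm10 build. Of the 52 genes, 41 had a promoter in that table. The 8-base site GAGGAAGT was found in 4 of the 41 promoters (9.76%), those of C1qc, Fcgr4, Pf4 and Vav1, and in 2.79% of the promoters of 27025 genes. Its 6-base core GAGGAA, which the longer site contains, was found in 21 of 41 (51.2%) and in 25.9% of all promoters. The E-box CACGTG, which MITF can bind, was found in 0 of 41 promoters and in 6.86% of all, and the E-box CATGTG in 6 of 41 (14.6%) and in 13.8% of all. The promoters of Fcgr4, Pf4 and Vav1 are printed 5' to 3' on the strand of the gene, to show where the longer site lies. Capitals mark GAGGAAGT or, where the site is on the opposite strand, its reverse complement. That of C1qc is not printed, since a large part of its window lies in an annotated transcript of the gene, as do the last few bases of that of Fcgr4.
Fcgr4, chr1:171018676-171018925 (+ strand): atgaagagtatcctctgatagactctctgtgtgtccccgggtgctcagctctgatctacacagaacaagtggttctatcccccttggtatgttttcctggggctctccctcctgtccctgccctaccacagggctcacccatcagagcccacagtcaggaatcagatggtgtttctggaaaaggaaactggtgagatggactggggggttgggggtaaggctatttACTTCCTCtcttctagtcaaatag
Pf4, chr5:90772185-90772434 (+ strand): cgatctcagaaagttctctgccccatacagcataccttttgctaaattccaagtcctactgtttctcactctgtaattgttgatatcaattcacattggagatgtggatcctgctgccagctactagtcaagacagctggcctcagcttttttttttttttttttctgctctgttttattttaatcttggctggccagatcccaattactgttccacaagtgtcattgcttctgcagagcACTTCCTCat
Vav1, chr17:57278850-57279099 (+ strand): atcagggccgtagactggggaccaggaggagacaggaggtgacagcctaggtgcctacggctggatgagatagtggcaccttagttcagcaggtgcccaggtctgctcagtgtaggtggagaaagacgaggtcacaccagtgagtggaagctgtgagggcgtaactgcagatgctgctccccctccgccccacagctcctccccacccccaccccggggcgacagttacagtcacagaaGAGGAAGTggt
In Fcgr4 and Pf4 the site lay on the opposite strand, and it began 24 and 10 bases before the gene start. In Vav1 it lay on the strand of the gene, 11 bases before the start. A match of these letters is a description and does not show that a factor was bound.

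The deposited values are RPKM, or counts corrected for exon length and for library depth, and the level of a gene was that of its highest exon. Reads were recovered from these values with a divisor equal to a depth of 45000000 reads for MEF, 45000000 for Dox (-) and 44000000 for Dox (+), and 3 reads, taken as the floor, were worth 0.444, 0.444 and 0.455 RPKM on a 150-bp exon. Mitf itself was at 1.52, 30.8 and 1544 RPKM in MEF, Dox (-) and Dox (+), in the order of the labels. In the rest of the text, series of 3 values follow this order. Of 10 fibroblast markers, 8, 10 and 10 were above 10 RPKM, with Fn1, the fibronectin gene, at 12146, 14116 and 7943. There was 1 library per condition, so that no value has a replicate error, and all intervals are 95% exact intervals of counting error only.

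Nearly all of the macrophage genes were far higher in the untreated knock-in MEFs than in either other library. A gene was called different between a pair of libraries when it was above 10 RPKM in at least 1 of them and differed more than 4-fold. By this rule 47 of 52 were higher in Dox (-) than in MEF and 0 were lower, where 4.79% of all 22835 genes, or 8.26% of the 13234 that passed 10 RPKM, were higher. From Dox (-) to Dox (+), 47 of 52 were lower and 0 higher, where 3.15% of all genes, or 5.41% of the 13307 that passed, were lower. The genes higher in Dox (-) than in both others numbered 47 of 52, against 1.99% of all genes. Since the genes were chosen with these contrasts known, nothing is read from the distance between these shares. In bulk RNA, fewer cells of a type and less RNA per cell cannot be told apart, here and in every value that follows.

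The median level of the 52 genes was 0.54 RPKM in MEF, 170.0 in Dox (-) and 4.32 in Dox (+), while that of all genes was 12.4, 17.9 and 15.2. On the log2(RPKM + 1) scale, which understates changes of low genes, their median difference was 6.45 for Dox (-) minus MEF, and -4.84 for Dox (+) minus Dox (-), where all genes had medians of 0.06 and 0.01. The counts above 10 RPKM were 3, 48 and 15 of 52, where those of all 22835 genes were 11867, 12790 and 12311. Those of the list in MEF and in Dox (+) include Cx3cr1, by a 12-bp exon. By this threshold Dox (-) held nearly the whole list, MEF almost none of it, and Dox (+) a reduced part. This is a description of a list that was chosen with these levels known. Over 11073 genes expressed in the 3 libraries, the median log2 shift was -0.05 between MEF and Dox (-), 0.28 between Dox (-) and Dox (+) and 0.23 between MEF and Dox (+), and rescaling by it left the counts of 47 as they were.

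**Figure D1:**
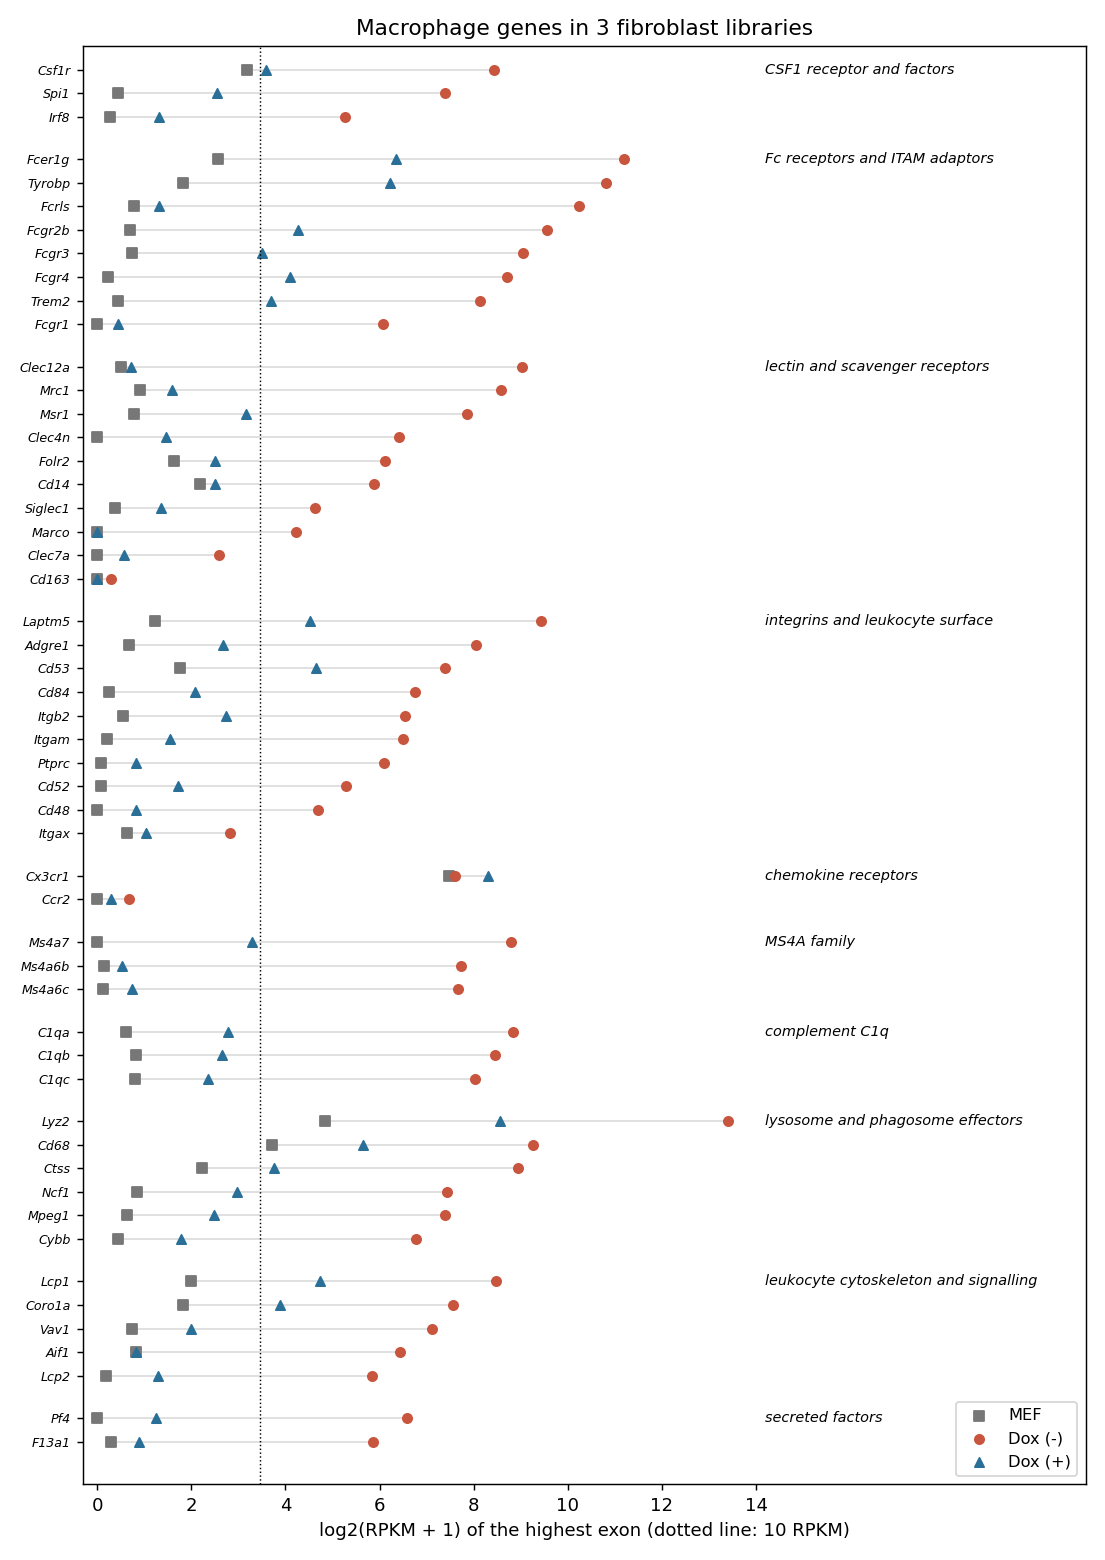
Level of each of the 52 macrophage genes in MEF (squares), Dox (-) (circles) and Dox (+) (triangles), as log2(RPKM + 1) of the highest exon, grouped by role, with 1 library per condition. The circle lies farthest to the right in 51 genes, Cx3cr1 being the exception, and 48 circles lie beyond the dotted line at 10 RPKM.

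**Figure D2:**
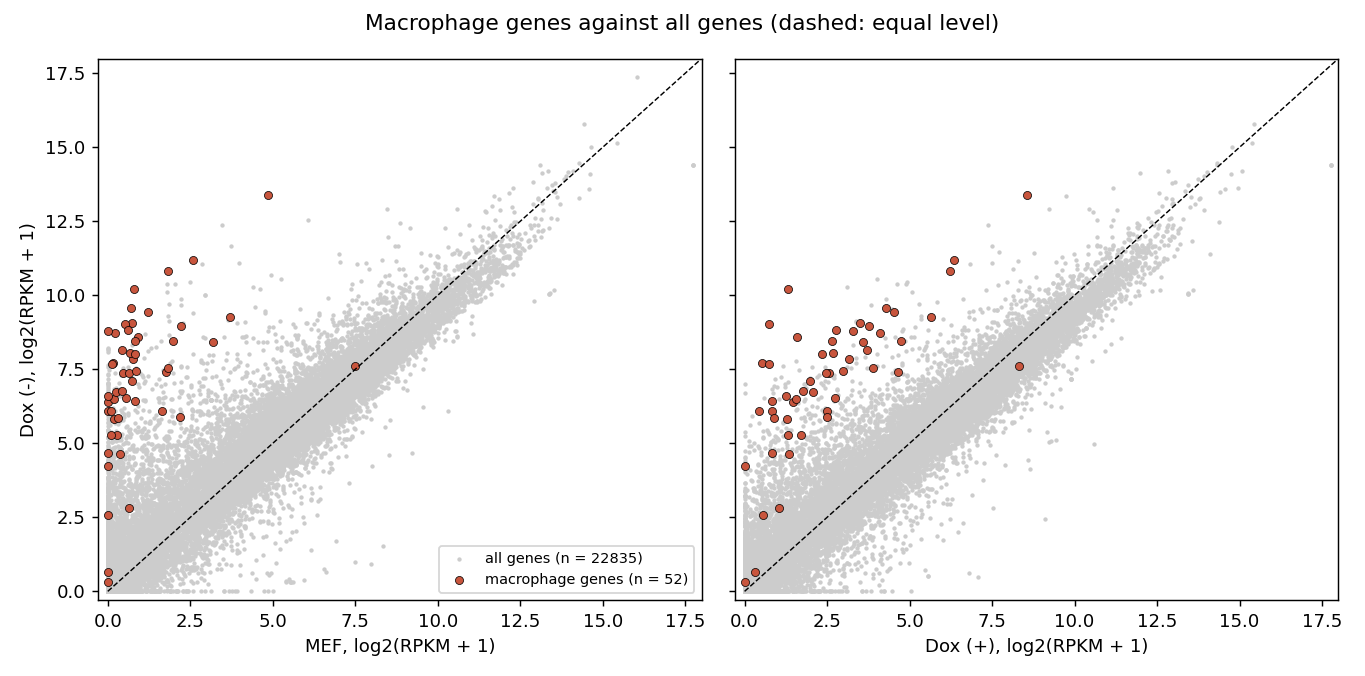
Level of every gene (grey, n = 22835) and of the macrophage genes (red, n = 52) in Dox (-) against MEF on the left and against Dox (+) on the right, as log2(RPKM + 1), with the dashed line at equal levels. The macrophage genes lie along the upper left edge of both clouds, apart from Cx3cr1 on the dashed line and a few genes near 0.

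The receptor for CSF1 and the lineage transcription factors came first in the order of roles, and all 3 genes were called in both comparisons. Csf1r, the receptor tyrosine kinase on which macrophages depend, was at 8.10 RPKM in MEF, 342 in Dox (-) and 11.0 in Dox (+). Its highest exon in MEF and in Dox (+) overlaps an exon of Hmgxb3, and on an 831-bp exon that overlaps no other gene the reads were 18, 3786 and 85. On that exon Dox (-) was 210 times MEF (interval 133 to 355) and 43.6 times Dox (+) (35.1 to 54.7). Spi1, which encodes PU.1, was at 0.36, 167 and 4.84 RPKM. Irf8, an interferon regulatory factor that acts with PU.1 in myeloid cells, was at 0.22, 37.5 and 1.48. The order of the libraries was the same for the 3 genes, with MEF lowest, Dox (+) above it and Dox (-) highest. The ligands of the receptor did not follow this pattern, since neither was called in any comparison. Csf1, its main ligand, was at 260 RPKM in MEF, 896 in Dox (-) and 952 in Dox (+), and Il34, the second ligand, was at 23.6, 18.5 and 16.3.

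The Fc receptors and their ITAM adaptors were all called in both comparisons, with a median of 642 RPKM in Dox (-), although 7 of these 8 levels rest on exons under 50 bp. Fcer1g, the common gamma chain of Fc receptors, was at 4.94, 2337 and 80.1 RPKM. Tyrobp, the adaptor also known as DAP12, was at 2.53, 1795 and 73.2. Trem2, a lipid-sensing receptor that signals through this adaptor, was at 0.36, 281 and 11.99. Both adaptors stood above Trem2 and the IgG receptors in every library, and in Dox (-) they ranked 184 and 292 of all genes.

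Of the IgG receptors, Fcgr1, the high-affinity receptor, was at 0, 66.7 and 0.37 RPKM. Fcgr2b, the inhibitory receptor, was at 0.62, 753 and 18.4. Fcgr3, an activating receptor of low affinity, was at 0.67, 531 and 10.3, and Fcgr4, an activating receptor of intermediate affinity, at 0.17, 419 and 16.2. Inhibitory and activating receptors thus had the same order of libraries. Fcrls, a scavenger receptor of the Fc receptor-like family, was at 0.72, 1199 and 1.49 RPKM, and on its most-read exon Dox (+) was 3.07 times MEF (interval 1.26 to 8.54). Over exons of at least 50 bp the levels were lower, at 1.69, 690 and 24.95 for Fcer1g, 1.51, 619 and 23.8 for Tyrobp, and 0.72, 293 and 1.49 for Fcrls. The IgG receptors were then at 29.1 (Fcgr1), 128 (Fcgr2b), 198 (Fcgr3) and 86.4 (Fcgr4) RPKM in Dox (-), and the highest exon of Trem2 was longer than that. Fcgr2b, Fcgr3 and Fcgr4 are close relatives that lie near each other on chromosome 1, and how reads that match several genes were counted is not given in the sources used here.

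Among the 10 lectin and scavenger receptors, 8 were called in both comparisons, and none was above 10 RPKM in MEF or in Dox (+). Mrc1, the mannose receptor CD206, was at 0.88 RPKM in MEF, 382 in Dox (-) and 1.99 in Dox (+). On its 1136-bp exon the reads were 6, 4859 and 18, so that Dox (-) held 264 times the level of Dox (+) (interval 167 to 446). This was the largest ratio between Dox (-) and Dox (+) among the genes with reads in both. Clec12a, an inhibitory C-type lectin, was at 0.43, 519 and 0.66 RPKM, with the 519 on an exon of 8 bp. Over exons of at least 50 bp it was at 93.0 in Dox (-). Msr1, the class A scavenger receptor, was at 0.71, 231 and 8.0, and Clec4n, which encodes dectin-2, at 0, 84.2 and 1.77. Folr2, a folate receptor of tissue macrophages, was at 2.12, 67.9 and 4.68, and Cd14, the co-receptor for lipopolysaccharide, at 3.54, 58.2 and 4.67. Lower levels were seen for Siglec1, the sialic acid receptor CD169, at 0.29, 23.7 and 1.56, and for Marco, a scavenger receptor of restricted macrophage types, at 0, 17.8 and 0. The remaining 2 genes did not reach 10 RPKM. Clec7a, which encodes dectin-1, was at 0, 5.01 and 0.48, and Cd163, the receptor for haemoglobin and haptoglobin complexes, at 0, 0.23 and 0, which is 2 reads on its most-read exon in Dox (-).

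Of the 10 integrin and leukocyte surface genes, 9 were called in both comparisons. Ptprc, which encodes CD45 and marks nearly all white blood cells, was at 0.07 RPKM in MEF, 67.6 in Dox (-) and 0.77 in Dox (+). Itgam, the integrin chain CD11b, was at 0.15, 89.4 and 1.92, and Itgb2, the beta chain that pairs with it, at 0.47, 91.8 and 5.64. Itgax, the chain CD11c, which is higher in dendritic cells and some tissue macrophages, was at 0.56, 6.10 and 1.05 and did not reach the threshold. The value of Itgam in Dox (-) is that of a 43-bp exon that overlaps Gm49368, and on its most-read exon without such overlap, of 1185 bp, it was 36.6. Adgre1, which encodes the macrophage marker F4/80, was at 0.60, 265 and 5.43 RPKM. Laptm5, a lysosomal protein of blood cells, was at 1.35, 694 and 22.04. Cd53, a leukocyte tetraspanin, was at 2.37, 168 and 24.2, and Cd84, a receptor of the SLAM family, at 0.19, 106 and 3.21. Cd52, a small GPI-anchored surface protein, was at 0.06, 38.2 and 2.30, and Cd48, a ligand within the SLAM family, at 0, 24.7 and 0.77.

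The chemokine receptors were the only group with no call. Cx3cr1, the fractalkine receptor of microglia and many tissue macrophages, was at 178, 194 and 316 RPKM by its highest exon, with MEF lowest and Dox (+) highest. This value came from a 12-bp exon at chr9:119901616-119901627 (mm10), with 96, 105 and 167 reads. On the 3661-bp exon at chr9:120048683-120052343 the reads were 14, 4724 and 32, or 0.09, 28.7 and 0.20 RPKM, so that Dox (-) was 337 times MEF (interval 201 to 618) and 144 times Dox (+) (102 to 211). By that exon Cx3cr1 had the pattern of the other genes, and with exons of at least 50 bp it was called, which raised both counts of 47 to 48. Ccr2, the receptor through which monocytes leave the marrow and enter tissues, was at 0, 0.59 and 0.23 RPKM.

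The 3 MS4A genes, which encode membrane proteins with several transmembrane segments that are found in myeloid cells, were called in both comparisons. Ms4a7 was at 0, 446 and 8.77 RPKM, Ms4a6b at 0.11, 211 and 0.45, and Ms4a6c at 0.09, 203 and 0.68. The value of Ms4a6b in Dox (-) is that of a 34-bp exon that overlaps Gm19261. Over exons of at least 50 bp Ms4a6b was at 111 in Dox (-), and on its most-read exon without such overlap at 11.5. On the most-read exon of Ms4a6c that overlaps no other gene the reads were 0, 953 and 0, so that Dox (-) was at least 311 times Dox (+), taking the floor of 3 reads per library. Ms4a6b and Ms4a6c are close paralogues, and reads could have been split between them.

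The 3 chains of C1q, the recognition molecule of the classical complement pathway, which macrophages secrete, had closely similar ratios of Dox (-) to Dox (+). C1qa was at 0.52, 455 and 5.88 RPKM, C1qb at 0.78, 350.0 and 5.34, and C1qc at 0.75, 260 and 4.08. They lie side by side on chromosome 4, between 136880129 and 136898803. On their most-read exons 1.41%, 1.52% and 1.57% of the Dox (-) level was left in Dox (+), and the 3 intervals (1.20 to 1.65, 1.30 to 1.77 and 1.32 to 1.85) overlapped.

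Among the lysosome and phagosome genes, all 6 were called in both comparisons and Lyz2 was the highest gene of the list. Lyz2, the macrophage lysozyme, was at 27.8 RPKM in MEF, 10820 in Dox (-) and 379 in Dox (+), and in Dox (-) it ranked 26 of all genes. On its 857-bp exon there were 395, 136320 and 5042 reads, so that Dox (-) was 345 times MEF (interval 313 to 382) and 26.4 times Dox (+) (25.7 to 27.2). Dox (+) was still 13.1 times MEF (11.8 to 14.5). Lyz1 is a close paralogue, and reads of the pair could have been shared.

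Cd68, a lysosomal membrane glycoprotein, was at 12.1, 614 and 49.2 RPKM, and Ctss, the protease cathepsin S, at 3.67, 494 and 12.6. Mpeg1, the pore-forming protein perforin-2 of phagosomes, was at 0.55, 167 and 4.56. Its 4251-bp exon held 106, 31910 and 854 reads, the second largest number in the list. For the oxidase that makes superoxide in phagosomes, Cybb, its membrane subunit gp91phox, was at 0.36, 108 and 2.44, and Ncf1, its cytosolic subunit p47phox, at 0.79, 172 and 6.90.

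All 5 genes of the leukocyte cytoskeleton and signalling were called in both comparisons. Lcp1, the actin-bundling protein L-plastin, was at 2.96, 353 and 25.6 RPKM, and Coro1a, the actin regulator coronin 1A, at 2.54, 187 and 13.9. Vav1, an exchange factor for small GTPases, was at 0.67, 138 and 2.96, and Lcp2, the adaptor SLP-76, at 0.14, 56.0 and 1.45. Aif1, the calcium-binding protein IBA1, was at 0.77, 85.2 and 0.78, where the values of MEF and Dox (+) lie under the floor of 3 reads and cannot be compared. The 2 secreted factors were also called. Pf4, a chemokine of platelets that some tissue macrophages also make, was at 0, 94.9 and 1.37, and F13a1, the A chain of coagulation factor XIII, at 0.24, 57.2 and 0.84.

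The 617 exons of the 52 genes were also described singly. In 513 of these, Dox (-) was above 10 RPKM and exceeded MEF and Dox (+) by more than 4-fold each, where 1.94% of all 226463 exons were. The genes were chosen by these levels, exons of a gene share its transcripts, and some exons overlap each other. Nothing is therefore read from the distance between these shares. Exons that overlap another gene were 26, in 11 of the genes. On the most-read exon without such overlap, the 52 genes together had 1215 reads in MEF, 303381 in Dox (-) and 9707 in Dox (+), with medians of 4, 1354.5 and 31. In MEF 14 genes had no read there and 9 had 1 to 3, so that the level of 23 genes in MEF lay at or under the floor. The ratio of Dox (-) to MEF had an interval above 1 in 38 genes, and in 13 more MEF had 0 reads. Its median was 303, from 16.4 for Cd14 to 992 for Msr1, where MEF had any read. Such intervals were not worked out for all genes, so nothing is read from the count of 38.

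The values of a gene by its highest exon also moved with the length of that exon. This was described in Dox (-) over 570 exons, those of the 48 genes above 10 RPKM there. Exons under 50 bp had a median of 2.16 times the RPKM of the median exon of the same gene (n = 44). Exons from 50 bp to under 150 bp had 1.08 times (n = 265) and exons of 150 bp or more 0.870 times (n = 261). The highest exon was under 50 bp in 18 of the 52 genes. Levels of different genes were therefore set beside each other only loosely, and the ratios given with an interval were taken on 1 and the same exon. The calls and the log2 differences used the highest exon of each library, which can differ, and with the same exon in both libraries the counts were 47, 47 and, for Dox (+) against MEF, 9.

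**Figure D3:**
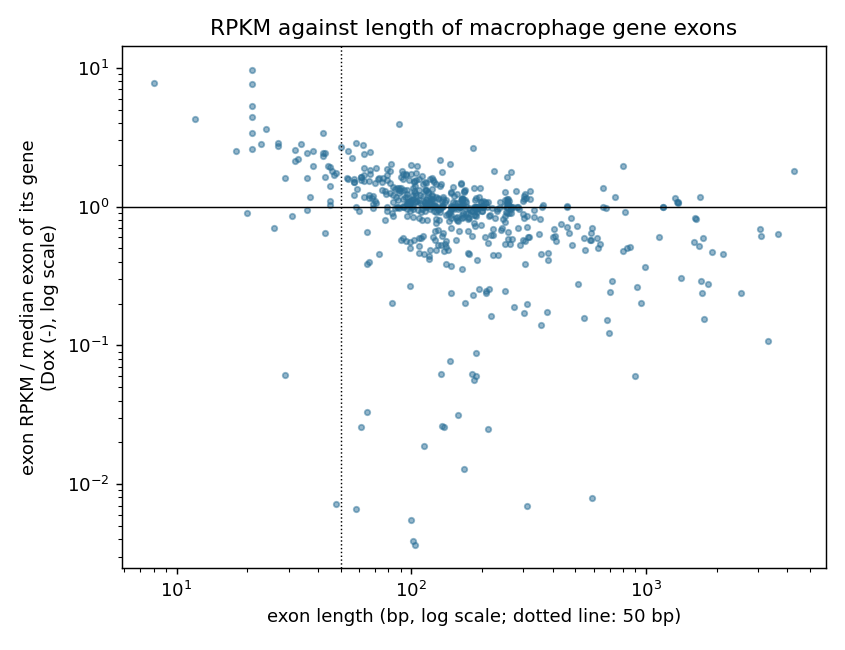
RPKM in Dox (-) of each exon of the 48 macrophage genes above 10 RPKM there, divided by the median exon of its gene, against exon length in bp. Both axes are on log scales, and exons at 0 are left out. Exons to the left of the dotted line at 50 bp lie mostly above 1 (median 2.16), and those of 150 bp or more mostly below it (median 0.870).

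The share of each gene that was left after doxycycline was not uniform. On the most-read exon the level in Dox (+) was a median of 2.74% of that in Dox (-) over 51 genes, with quartiles of 1.55% and 4.07% and a range from 0 to 17.5%, Cd163 having too few reads. Lyz2, which had the most reads, kept 3.78% (3.68 to 3.89) and served as the reference. The interval lay below that of Lyz2 in 27 genes, overlapped it in 17 and lay above it in 6. This comparison covers counting error within 1 pair of libraries, and how far such shares vary between cultures was not measured.

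The lowest shares were those of Ms4a6c at 0% (0 to 0.40), Mrc1 at 0.38% (0.22 to 0.60), Ms4a6b at 0.45% (0.12 to 1.15), Fcrls at 0.51% (0.31 to 0.78), Cx3cr1 at 0.69% (0.47 to 0.98), Aif1 at 0.76% (0.09 to 2.76) and Clec12a at 0.79% (0.38 to 1.46). Adgre1 followed at 1.09% (0.62 to 1.77). Marco also had 0 reads in Dox (+), but its interval reached 4.83%, so that it could not be told from Lyz2. At the other end, the genes with an interval above that of Lyz2 were Cd53, which kept 17.5% (14.9 to 20.4), Cd68 8.59% (7.79 to 9.46), Cd14 8.01% (7.06 to 9.07), Irf8 6.35% (4.71 to 8.38), Cd52 6.03% (4.20 to 8.40) and Lcp1 4.80% (4.38 to 5.26). Ccr2 at 9.74% (2.54 to 26.8) and Folr2 at 5.75% (3.75 to 8.48) were high as well, but their intervals overlapped that of Lyz2. The genes above Lyz2 therefore included a transcription factor, surface proteins and a lysosomal protein, and those that kept least were surface receptors, MS4A genes and Aif1. By role, in groups of at least 3 genes, the medians ran from 0.447% in the MS4A genes and 1.52% in C1q to 3.60% in the Fc receptors and ITAM adaptors.

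For some of the genes that kept most, MEF already had reads. Cd14 had 212, 3484 and 273 reads, so that MEF stood at 6.08% of Dox (-) and Dox (+) was only 1.32 times MEF (1.10 to 1.58). That ratio was not rescaled for the median shift between MEF and Dox (+). Cd68 had 96, 5379 and 452 reads, and MEF stood at 1.78% of Dox (-). Cd53 did not have such a level in MEF, with 8, 1117 and 191 reads, and MEF at 0.716% of Dox (-). Over its 8 exons the share left ran from 14.5% to 34.0%, and was above that of Lyz2, which ran from 3.50% to 3.90% over 4 exons, in each of them. Other genes depended on the exon. Irf8 ran from 1.53% to 10.1% and Lcp1 from 3.43% to 13.1%, while Coro1a and Itgb2, whose intervals overlapped that of Lyz2, had medians over their exons of 6.06% and 5.86%. The division into 27, 17 and 6 therefore holds for the most-read exon.

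**Figure D4:**
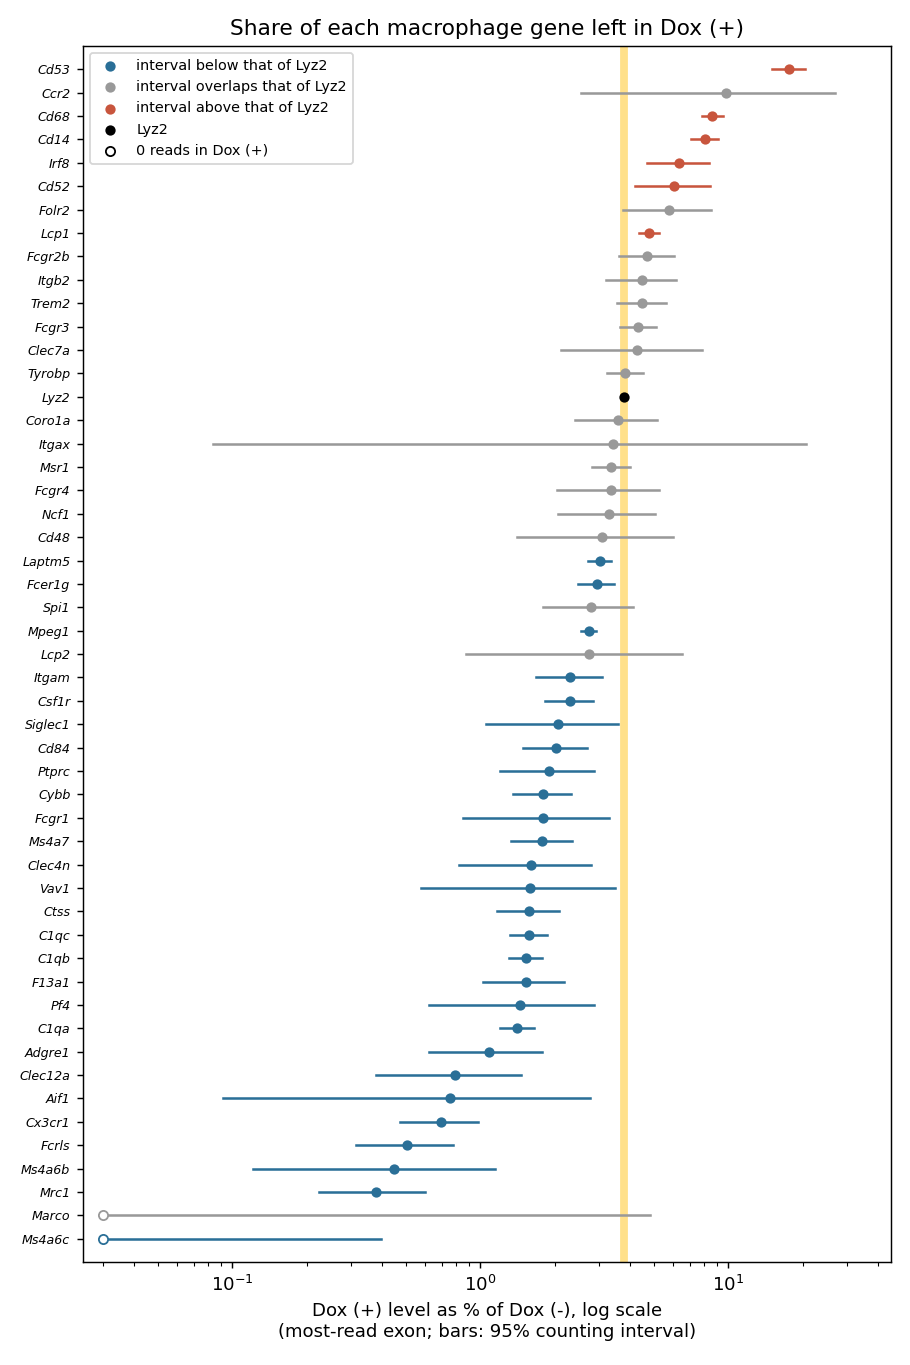
Level in Dox (+) as a percentage of that in Dox (-) on the most-read exon of 51 macrophage genes, on a log scale, with 95% counting intervals as bars and that of Lyz2 as the yellow band. Blue intervals lie below that of Lyz2 (27 genes), grey ones overlap it (17) and red ones lie above it (6). Open circles at the left edge stand for 0 reads in Dox (+).

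Doxycycline-treated MEFs still differed from wild-type MEFs in part of the list. Between MEF and Dox (+), 12 of 52 genes were higher in Dox (+) and 0 lower, where 3.71% of all genes, or 6.55% of the 12941 that passed 10 RPKM, were higher. Only 15 of the 52 passed 10 RPKM in either library, so that the count is limited by level. The 12 were Lyz2, Fcer1g, Tyrobp, Trem2, Fcgr2b, Fcgr3, Fcgr4, Cd68, Cd53, Laptm5, Lcp1 and Coro1a. Over exons of at least 50 bp 8 of them were called, without Fcgr2b, Fcgr4 and Coro1a, which were then at 7.39, 3.41 and 9.01 RPKM in Dox (+), and without Cd68, at 12.1 in MEF and 38.0 in Dox (+). The count was 6 with the mean of all exons and 3 with the most-read unshared exon, on which Coro1a in Dox (+) was 2.05 times MEF (1.07 to 4.09). Csf1r, Ctss and Cx3cr1 passed 10 RPKM but differed less than 4-fold, Cx3cr1 by its 12-bp exon and Csf1r by the exon that overlaps Hmgxb3. On the 831-bp exon of Csf1r without overlap, Dox (+) was 4.83 times MEF (2.88 to 8.54). By reads on 1 exon, the ratio of Dox (+) to MEF had an interval above 1 in 36 genes, held 1 in 1 (Vav1, 3.07, interval 0.549 to 31.1), was a lower bound in 10 with no read in MEF, and could not be given in 5 with both libraries at or under the floor. The median ratio was 7.47, from 1.32 for Cd14 to 41.4 for Trem2 (11.1 to 348). Such intervals were not worked out for all genes, so nothing is read from the count of 36. They also leave out the median log2 shift of 0.23 between MEF and Dox (+), which weighs most on a ratio as low as that of Cd14. The median log2 difference over all 52 was 1.41, where that of all genes was 0.12.

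Other genes of the same pathways, chosen from knowledge of the pathways with the earlier results known, were counted whole. Of 50 such genes, 36 were higher in Dox (-) than in MEF, where 4.79% of all genes were. In Dox (+) 33 were lower than in Dox (-), where 3.15% of all genes were, and 0 went in the opposite direction in either comparison. Another 5 calls were of genes higher in Dox (+) than in MEF, where 3.71% of all genes, or 6.55% of those that passed 10 RPKM, were higher. Given how the lists were chosen, nothing is read from these counts or from those of the single lists. Among further C-type lectins 6 of 8 were called in both comparisons, for example Clec4d, the receptor MCL, at 0.82, 185 and 11.99 RPKM. Of the partners of the oxidase, Ncf4, a cytosolic subunit, was called in both, at 0.38, 186 and 8.26, while Cyba, the second membrane subunit, which many cells make, was at 543, 838 and 1067 and was not called. Of 9 kinases, phosphatases and adaptors that act after ITAM receptors, 5 were called in each comparison. Ptpn6, the phosphatase SHP-1, was at 3.70, 189 and 7.58, whereas Syk, the kinase that binds ITAMs, was at 20.1, 46.5 and 46.2. Their Dox (-) values rest on exons of 24 and 32 bp. On exons of at least 50 bp without overlap Ptpn6 was at 1.93, 95.9 and 4.77, and Syk at 17.5, 33.1 and 29.7.

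Of 9 paired inhibitory receptors, 8 were higher in Dox (-) than in MEF and 7 lower in Dox (+). Pirb, which binds MHC class I, was at 2.47, 1093 and 32.8 RPKM, and Lilrb4a, a related receptor, at 12.3, 3217 and 180, although its exons overlap those of Gm49339. The Dox (-) values of both rest on exons of 36 bp. On exons of at least 50 bp without overlap Pirb was at 1.48, 663 and 17.8. Of 13 Toll and inflammasome genes, 9 were higher in Dox (-) than in MEF and 8 lower in Dox (+), for example Ly86, the partner of Cd180, at 0, 121 and 0.86. Cd180 was at 4.13, 32.1 and 32.9 by its highest exon, which in Dox (+) overlaps Mast4. By this it counted as higher in Dox (+) than in MEF and not as lower than in Dox (-). On its exons of at least 50 bp without overlap it was at 0.10, 32.1 and 0.85. Myd88, the adaptor shared by most Toll-like receptors, was at 76.6, 93.7 and 87.0 and was not called. All 5 macrophage chemokines were higher in Dox (-) than in MEF and 4 were lower in Dox (+), with Ccl12 at 0, 127 and 2.50 and Ccl6 at 0, 63.0 and 30.3. The genes of these lists not called between MEF and Dox (-) were mostly either above 10 RPKM in MEF already, such as Csf1, Syk, Cyba and Myd88, or did not reach 10 RPKM in Dox (-), such as Mgl2, Tlr9 and Il1b, while Tlr4, the receptor for lipopolysaccharide, was at 7.58, 19.3 and 10.48.

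Markers of other cells that the cultures could hold were counted as well. Of 5 mast cell, 4 dendritic cell, 6 T cell, 5 B cell, 3 NK cell and 4 erythroid markers in the table, 0 were above 10 RPKM in any of the 3 libraries. Of 6 neutrophil markers only Ly6g was, at 62.3, 295 and 43.0 RPKM, and Ly6g belongs to a family of close relatives, so that this value is uncertain. The monocyte marker Ly6c2, of the same family, was at 114, 512 and 74.7, and Plac8 was at 615, 250 and 66.9, highest in MEF. Ly6g and Ly6c2 were called higher in Dox (-) than in both others, where 1.99% of all genes were. Of 7 osteoclast markers, 2 were called in both comparisons, Mmp9 (0.32, 27.1 and 4.81) and Tnfrsf11a (3.77, 20.1 and 3.60). Ctsk, also made by fibroblasts, was at 18.2, 259 and 450. Acp5 was at 5.21, 10.6 and 3.91 and was not called, and Calcr, Ocstamp and Dcstamp were at 0.24 RPKM or less in every library. Of 6 microglia markers 2 were higher in Dox (-) than in MEF, Tmem119 at 5.99, 99.6 and 50.1 and Olfml3 at 16.9, 154 and 61.8, and 0 were lower in Dox (+) than in Dox (-) by the rule. P2ry12, at 0, 9.76 and 0.05, did not reach 10 RPKM. Above 10 RPKM were 2, 3 and 2 of 5 blood progenitor and 1, 2 and 0 of 4 megakaryocyte markers. Of 4 endothelial markers 0, 1 and 0 were, of 5 keratinocyte 1, 0 and 1, and of 7 melanocyte 0, 0 and 3. By the rule, Runx1 (9.52, 72.2 and 41.3) and Kdr (0.89, 10.7 and 3.54) were higher in Dox (-) than in MEF, where 4.79% of all genes were. Cd34 (129, 49.9 and 5.89) and Ppbp (7.52, 11.3 and 0.66) were lower in Dox (+) than in Dox (-), where 3.15% of all genes were. Krt14 (32.8, 2.12 and 26.9) was lower in Dox (-) than in MEF and higher in Dox (+) than in Dox (-). Tyrp1 (0, 0.52 and 110) and Mlana (0.58, 0.39 and 133) were also higher in Dox (+) than in Dox (-). In these last lists, 0 genes were higher in Dox (-) than in both others. The part of any of these cells in the values of the macrophage genes was not tested.

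**Figure D5:**
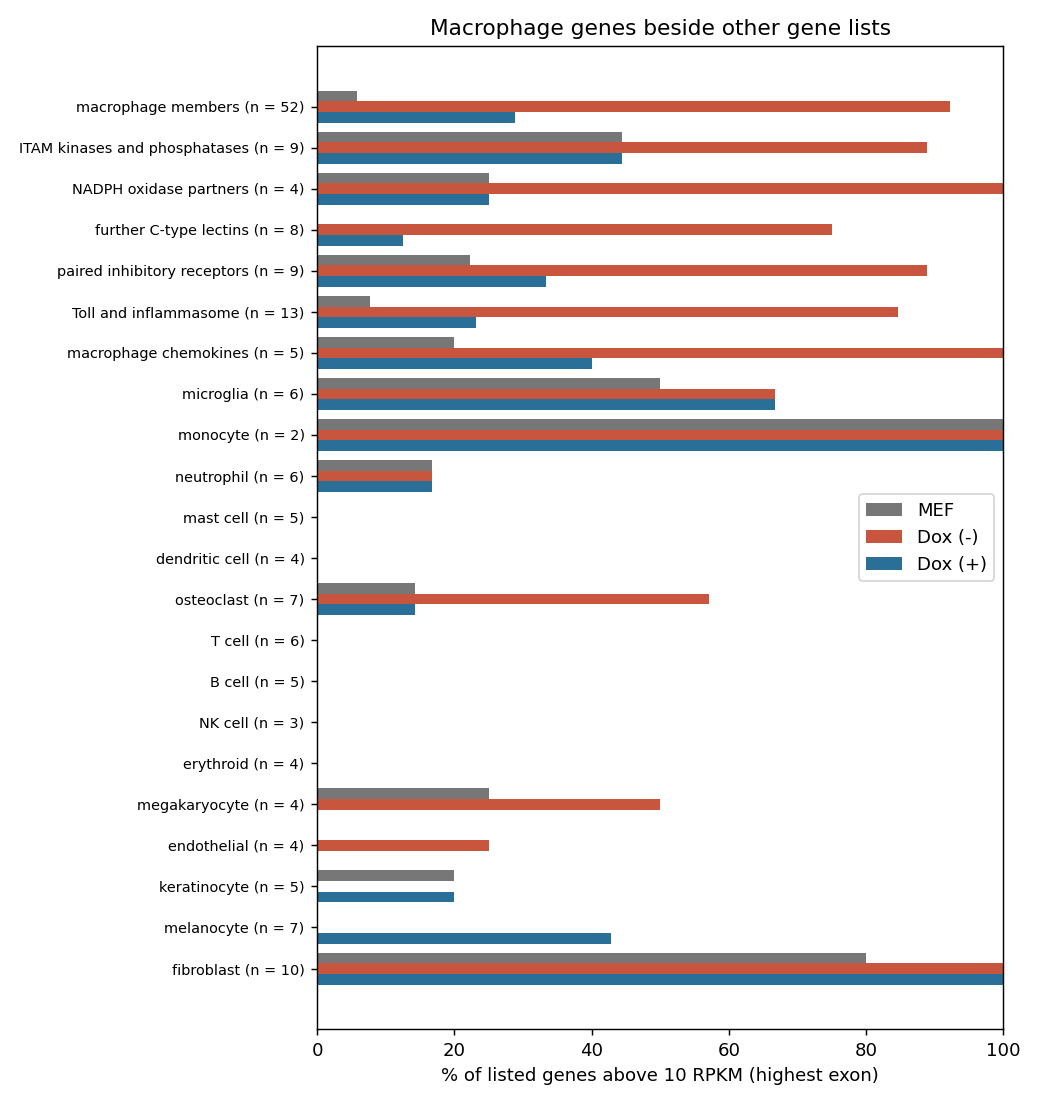
Percentage of the genes of each list above 10 RPKM in MEF (grey), Dox (-) (red) and Dox (+) (blue), with the number of genes in brackets. For the 52 macrophage genes 3, 48 and 15 genes were above this level, for the 10 fibroblast markers 8, 10 and 10, and for T, B, NK, mast, dendritic and erythroid markers 0 in every library. Of all 22835 genes, which are not drawn, 11867, 12790 and 12311 were.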

How the data were processed

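RNA from wild-type MEFs, Dox (-) MEFs and Dox (+) MEFs was sequenced by the authors as 1 poly(A) library per condition, prepared with a TruSeq kit. Per the labels and the study's methods, demultiplexing was with bcl2fastq 2.17.1.14, reads were aligned to mm10 with TopHat2 2.0.10, and bedtools counted reads per Ensembl exon. The authors deposited these as RPKM values per exon, without further normalization. The kit does not mark strand, so that overlapping genes cannot be told apart. The treatment of reads with several matches is not given in the sources used here.

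Columns were assigned to libraries by name. In all, 1 column carried a name that no label matches and was set aside, and PMel was not analysed here, so that the comparisons of PMel with MEF that had been laid out were not run. Of 234718 exons, 228132 were matched to GENCODE release M21 and 6586 were not. The 226463 exons of protein-coding genes, pseudogenes and lincRNAs were used. A gene took the level of its highest exon, as in the study. A call needed more than 10 RPKM in at least 1 of 2 libraries and more than a 4-fold difference. Log2 differences used a pseudocount of 1 RPKM. The recovered reads were whole numbers for 97.2%, 97.0% and 97.0% of values below 200 reads in MEF, Dox (-) and Dox (+), within 0.02 reads up to 50 reads and in proportion above. The depth was searched as a whole-number divisor between 20 and 80 on the scale of RPKM, and the one that made most values whole was taken. Ratios of reads had exact conditional binomial intervals (95%), and 3 reads was taken as the floor. Intervals and floors cover counting error only, since PCR copies are not independent molecules. With 1 library per condition, no p-value was computed.

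The 52 genes, the pathway lists and the marker lists were chosen with earlier results of these data known. Genes above 10 RPKM in any library were to be named with values, and in fact all 52 are. The other genes named are examples from the pathway and marker lists, and the 20 genes above 10 RPKM in Dox (-) with the largest excess over both other libraries. The examples were picked after their values were seen. The alternatives changed the threshold, the fold, the pseudocount, the exon per gene and the scaling. The most-read unshared exon and the restriction to exons of at least 50 bp were added with the values in view. The recovery of the divisor, the calls and the coverage of the intervals were tested on simulated data, and the other steps were not. Python 3.11.15, pandas 2.3.3, NumPy 2.4.6, SciPy 1.17.1 and matplotlib 3.10.9 were used.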

Additional observations from a re-analysis of the deposited data

How the results depend on the processing

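Counts of the macrophage genes called in Dox (-) against MEF and in Dox (+) against Dox (-) (both 47) ran from 44 to 49 under every alternative run, with 0 genes in the other direction. The count of 12 in Dox (+) against MEF was 32 with a threshold of 1 RPKM, 4 with 30 RPKM, 6 with the mean of all exons and 3 with the most-read unshared exon. Median log2 differences depended on the pseudocount. For Dox (-) minus MEF the median of 6.45 became 8.07 with a pseudocount of 0.1 RPKM, 4.70 with 5 RPKM and 5.16 with the most-read unshared exon. For Dox (+) minus Dox (-) that of -4.84 became -3.94 with 5 RPKM. For Dox (+) minus MEF that of 1.41 became 2.58 with 0.1 RPKM, 0.51 with 5 RPKM and 2.90 over the genes above 10 RPKM. Higher thresholds leave fewer genes to call, and a larger pseudocount shrinks differences by construction. The cause of the other shifts was not tested. Of 520 values of single genes under 5 alternatives, 0 changed direction among called genes and 77 moved by over 1 on the log2 scale. Genes that were not called are among the 520 but could not count as changed. Of these, Cx3cr1 did change, with a log2 difference of 0.70 for Dox (+) minus Dox (-) by its highest exon. Over exons of at least 50 bp it was at 45.9 RPKM in Dox (-) and 0.20 in Dox (+).

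No paired analysis was possible because there was 1 library per condition, and for the same reason no replicate was left out. The comparisons with PMel were not run. Differences between the libraries cannot be told apart from differences between single cultures, and MEF also differed in passage (3 against 5). At these depths a level under 0.444 RPKM on an exon of 150 bp rests on 3 reads or fewer, which limits the ratios of the 23 genes with at most 3 reads in MEF.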

Other observations

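Genes were also ranked over the whole table by the smaller of the log2 differences of Dox (-) over MEF and over Dox (+), among 11184 genes above 10 RPKM in Dox (-), genes with placeholder symbols left out. The macrophage genes made up 9 of the first 20, 26 of the first 50 and 36 of the first 100, and 48 of all 11184. They were chosen with these contrasts known, so nothing is read from their places in the ranking. Of the 20 highest genes that are not among the 52, 4 belong to the pathway lists (Clec4a2, Ly86, Cd300lf and Ccl12). Others are Cd200r1, an inhibitory receptor of myeloid cells, at 0.44 RPKM in MEF, 91.8 in Dox (-) and 0.49 in Dox (+), Pld4, a lysosomal exonuclease of myeloid cells, at 0.92, 119 and 1.35, Pira2, an activating partner of Pirb, at 3.70, 936 and 18.3, and Ikzf1, which encodes the lymphoid and myeloid factor Ikaros, at 0.02, 62.5 and 0.84. Naip2 and Naip5, sensors of bacterial proteins and close paralogues, were at 37.0, 1489 and 15.2 and at 4.27, 188 and 4.37. The rest of the 20 were Ifi27l2a, Ifi27l2b, Lst1, Tmem273, Cd200r2, Nxpe5, Cd300ld3, Saa3, Lilra6 and Eln.

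Eln, the gene of elastin in the fibre of elastic tissue, is a product of mesenchymal cells and not a macrophage gene, and was at 20 RPKM in MEF, 1230 in Dox (-) and 7.58 in Dox (+). Among the fibroblast markers, Dcn, the proteoglycan decorin, was at 30.02, 1637 and 720, Lum, the related lumican, at 6.07, 226 and 44.8, and Col3a1, the chain of type III collagen, at 3320, 10487 and 847. Of the 10 fibroblast markers 8 were highest in Dox (-), and 2 in Dox (+), Thy1, a surface protein, at 726, 2014 and 3608, and Twist2, a mesenchymal transcription factor, at 8.85, 56.8 and 111. By the rule for calls, 4 were higher in Dox (-) than in MEF (Pdgfra, Twist2, Dcn and Lum), where 4.79% of all genes were. Lower in Dox (+) than in Dox (-) were 4 (Col1a1, Col1a2, Col3a1 and Lum), where 3.15% of all genes were. Only 1 of the 10, Lum, was higher in Dox (-) than in both others, where 1.99% of all genes were.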
